A study of Arabidopsis thaliana with 18 samples.

Results

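Rubisco, the chloroplast enzyme that fixes CO2, is built from large subunits encoded in the chloroplast genome and small subunits encoded by a nuclear family, RBCS. The 8 genes described here, chosen by locus out of 33082 in the deposited table, were the 4 small subunit copies RBCS1A (AT1G67090), RBCS1B (AT5G38430), RBCS2B (AT5G38420) and RBCS3B (AT5G38410), the Rubisco activase RCA (AT2G39730), the carbonic anhydrases CA1 (AT3G01500) and CA2 (AT5G14740), and the fructose-bisphosphate aldolase FBA2 (AT4G38970). They were measured by RNA-seq of Arabidopsis thaliana seedlings of the Col-0 ecotype, 9 days old and grown on vertical plates. There were 6 groups of 3 libraries, 18 in all. Wild type (WT) seedlings were mock-treated, given 100 µM abscisic acid (ABA) or given 300 mM mannitol, and seedlings of the genotype labelled bon123t, written bon123 below, had the same 3 treatments. The treatment lasted 12 hours by the sample labels and 24 hours by the series text, and the conflict is not settled here. The BON genes encode copines, proteins that bind membrane phospholipids in a calcium-dependent way. ABA is the plant hormone of drought and seed maturation, and mannitol lowers the water potential around the root. The labels do not say whether each library came from a separate plate or pool of seedlings. The p-values set each difference against the spread between these libraries, which may be technical.

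In a leaf, RCA removes sugar phosphates that lock Rubisco's active site, CA1 (plastid) and CA2 (cytosol) interconvert CO2 and bicarbonate, and FBA2 joins triose phosphates in the Calvin-Benson cycle, which rebuilds the CO2 acceptor. RBCS transcripts are among the most abundant of green tissue, are made in the light, and are low in roots. All values below are TPM, the usual length-scaled expression unit, which the authors normalized to transcript length and to the total of each library. A TPM level is therefore a share of a library's RNA. With whole seedlings, fewer green cells and less RNA per green cell cannot be told apart.

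The small subunit copies are close relatives, so their sequences bear on how far their levels can be read separately. In the RefSeq annotation of TAIR10.1, RBCS1A lies alone on the minus strand of chromosome 1, at 25048158 to 25049667. The other 3 copies stand side by side on the minus strand of chromosome 5, RBCS3B at 15376988 to 15378642, RBCS2B at 15380907 to 15382071 and RBCS1B at 15383167 to 15385320, a block of 8333 bases. Each of the 4 has 3 exons. RCA lies on chromosome 2 at 16570746 to 16573692, CA1 on chromosome 3 at 194426 to 198664, FBA2 on chromosome 4 at 18163496 to 18166008, all on the minus strand, and CA2 on the plus strand of chromosome 5 at 4757856 to 4762666. The first 120 coding bases of the 4 copies are given to show where reads can tell them apart; capitals mark the 25 positions at which at least 1 copy differs.
RBCS1A: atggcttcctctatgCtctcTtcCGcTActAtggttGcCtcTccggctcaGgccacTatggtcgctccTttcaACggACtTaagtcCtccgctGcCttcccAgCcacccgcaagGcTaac
RBCS1B: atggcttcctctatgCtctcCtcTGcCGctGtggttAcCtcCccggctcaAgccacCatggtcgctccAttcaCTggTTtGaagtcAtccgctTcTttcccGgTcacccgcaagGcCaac
RBCS2B: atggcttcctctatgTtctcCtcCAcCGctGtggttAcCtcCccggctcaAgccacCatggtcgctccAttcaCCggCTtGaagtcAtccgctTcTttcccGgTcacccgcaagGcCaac
RBCS3B: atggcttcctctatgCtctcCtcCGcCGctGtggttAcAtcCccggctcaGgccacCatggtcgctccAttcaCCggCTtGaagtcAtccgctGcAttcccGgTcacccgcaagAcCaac
Over whole coding sequences, RBCS1B and RBCS2B were identical at 97.3% of aligned positions, RBCS1B and RBCS3B at 94.1%, and RBCS1A differed most from the rest, with 87.7% to 90.1%. RBCS1B and RBCS3B share an unbroken identical stretch of 230 bases. Of all 100-base windows in the coding sequence, 29.3% of those of RBCS1B and 28.4% of those of RBCS3B occur also in another copy, and none of those of RBCS1A or RBCS2B do. Of 50-base windows, 51.3% of those of RBCS1B, 40.6% of RBCS3B, 38.0% of RBCS2B and 3.64% of RBCS1A are shared; the labels do not give the read length. Reads from such windows cannot be placed by sequence alone, so the division among the 3 chromosome 5 copies depends on the authors' estimation, and the sum of the 4 copies is given beside the single values throughout. CA1 and CA2 were identical at 75.5% of aligned coding positions, with no identical stretch over 42 bases.

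Light-regulated promoters of this family are known for a G-box (CACGTG, the same on both strands) and for I-boxes (GATAAG, searched on both strands). Within 400 bases before the coding start, a G-box was found once each in RBCS1A, RBCS2B, RBCS3B and RCA and not in RBCS1B, CA1, CA2 or FBA2, against 7.87% of 27443 protein-coding genes with such a window. The matches are shown because the small subunit copies differ here; the G-box is in capitals, and the strand is that of the gene.
RBCS1A: ggaattatcttcCACGTGgcattattccag
RBCS2B: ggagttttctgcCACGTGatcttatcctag
RBCS3B: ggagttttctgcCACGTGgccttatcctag
RCA: ataaacatattcCACGTGgaccaatcaaaa
At least 1 I-box was found in the windows of RBCS1A (2), RBCS1B (2), RBCS2B (3), RBCS3B (3), CA1 (2) and FBA2 (1), against 19.4% of all genes. An ABRE-like match (ACGTGGC, both strands), which overlaps the G-box, was found in RBCS1A (1), RBCS2B (1) and RBCS3B (2), against 4.37% of all genes. These matches describe letters in a window and are not shown to be sites.

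Before any comparison of genotypes, the libraries were set against their labels. BON1 ranged from 10.13 to 18.3 TPM in the 9 WT libraries and from 0.25 to 1.66 TPM in the 9 bon123 libraries, and BON2 from 21.3 to 36.3 against 2.85 to 16.2 TPM, so the genotype labels held for these 2 genes. BON3 did not bear on the labels: it was under 1 TPM throughout, at most 0.17 TPM in WT libraries but 0.22 to 0.75 TPM in those of bon123. All 18 libraries are labelled seedlings, which have shoots and roots. The summed level of 7 shoot organ markers outside photosynthesis (YAB1, YAB2, YAB3, YAB5, TMM, SPCH and GL1) lay between 72.3 and 145 TPM in WT libraries but between 1.31 and 3.79 TPM in those of bon123. YAB1, a determinant of the underside of leaves, had at least 19.9 TPM in WT and at most 0.34 TPM in bon123, and YAB5 was listed at 0 in 7 of the 9 bon123 libraries. The summed level of 11 root markers ran from 54.3 to 299 TPM in WT against 145 to 860 TPM in bon123, but 1 gene, the phosphate transporter PHT1;1, held most of it in bon123 mock and mannitol. Without it the sum lay between 43.3 and 183 TPM in WT, against 97.3 to 241 TPM in bon123, and in mock the ranges of the genotypes overlapped. In mock 2 of the 11 root markers were higher in bon123 and 1 lower (median -0.42), in ABA 6 and 2, and in mannitol 4 and 1. The 4 light-harvesting genes LHCB1.3, LHCB2.2, LHCB3 and LHCB4.1 reached a sum of 16103 to 28328 TPM in WT, against 186 to 1182 TPM in bon123. The bon123 libraries thus lacked the defining markers of shoot organs almost wholly, and genotype and organ content cannot be told apart in any difference between genotypes below. Ribosomal RNA genes took 5.999% to 10.2% of the total in bon123 mannitol, 7.02% in WT mock replicate 1 and at most 2.23% in the other libraries.

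**Figure D1:**
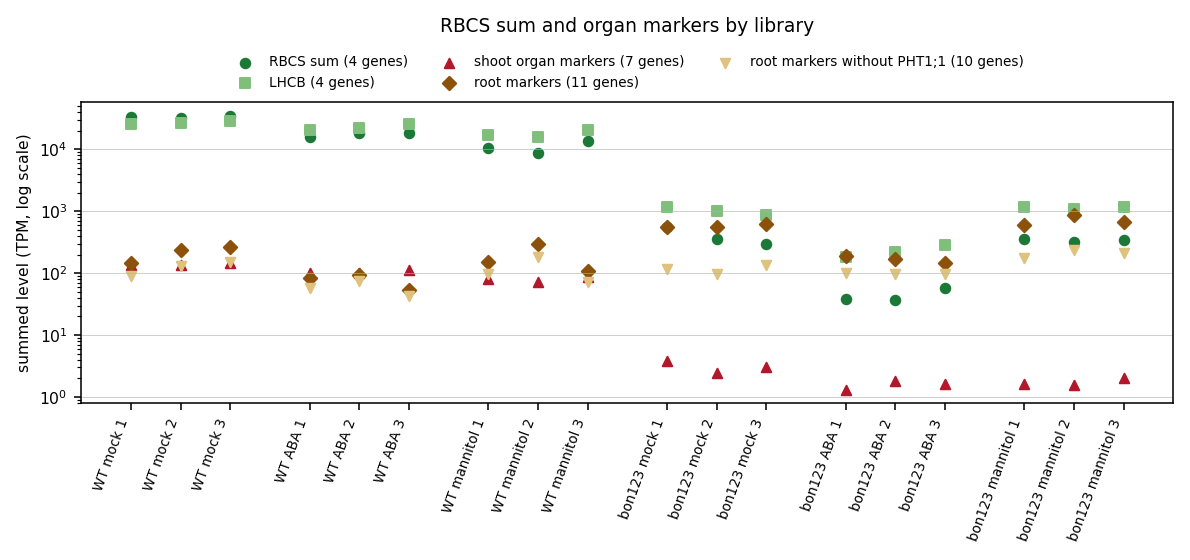
Summed levels (TPM, log axis) of the 4 RBCS copies, 4 LHCB genes, 7 shoot organ markers and 11 root markers, the last also without PHT1;1, in each of the 18 libraries. The shoot markers sum to 72.3 TPM or more in every WT library and to 3.79 TPM or less in every bon123 library, while the root markers without PHT1;1 lie between 43.3 and 241 TPM in all 18.

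In mock-treated WT seedlings the RBCS genes were near the top of the whole transcriptome. The sum of the 4 copies was 33099, 32268 and 34844 TPM, or 3.23% to 3.48% of all transcripts. RBCS1A ranked between second and 4th of all genes, at 13903, 13095 and 14217 TPM. RBCS3B came next, at 9547, 9698 and 9879.7 TPM. RBCS2B, at 4925, 4831 and 5311 TPM, and RBCS1B, at 4724, 4645 and 5436 TPM, overlapped and were the 2 least abundant copies. RCA was between them and RBCS3B, at 5857, 6534 and 6996 TPM. FBA2 was at 2918, 2962 and 3267 TPM, CA1 at 1942, 1881 and 2148 TPM, and CA2 at 1279, 1281 and 1346 TPM. Neighbours in this order did not overlap except RBCS2B and RBCS1B. TPM is scaled to transcript length, so these levels can be set against each other.

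ABA lowered part of this set in WT, and unevenly. The RBCS sum fell to 15739, 18161 and 18294 TPM, 52.1% of mock on average, a log2 fold change of -0.94 ± 0.21 (SE; limma across all genes, Benjamini-Hochberg adjusted p = 0.0015). All 3 ABA libraries lay below all 3 mock libraries. Fold changes here and below are on the log2(TPM + 1) scale, each value given with n = 3 libraries a group. RBCS1A fell to 7849.6, 9285 and 9464 TPM (-0.64 ± 0.16, adjusted p = 0.0043). RBCS1B fell to 1192, 1423 and 1295 TPM, 26.4% of mock, the lowest percentage among the 8 genes (-1.92 ± 0.74, adjusted p = 0.0423). Its call was fragile: it passed in 8 of 18 fits with 1 library left out and in 8 of 13 other settings. In these limma fits the adjusted p ran from 6.02e-04 to 0.0965 and from 1.82e-04 to 0.1327. All 3 ABA libraries of RBCS1B lay below all 3 mock libraries. The spread that the fit used for RBCS1B includes bon123 mock replicate 1, at 30.04 TPM against 0.66 and 1.93 TPM in the other bon123 mock libraries. FBA2 fell to 1820.1, 1722 and 2159.7 TPM (-0.69 ± 0.13, adjusted p = 4.28e-04). RCA was at 5774, 5511 and 6469 TPM, 91.6% of mock, and its libraries overlapped those of mock (-0.13 ± 0.13, adjusted p = 0.4525).

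The 4 remaining genes lay well below mock in every ABA library and yet did not pass the threshold in the fit over all 18 libraries. RBCS2B was at 1915, 2074 and 2152 TPM, 40.8% of mock (-1.29 ± 0.75, adjusted p = 0.1726). RBCS3B was at 4782, 5378 and 5384 TPM, 53.4% of mock (-0.91 ± 0.59, adjusted p = 0.2218). CA1 was at 821, 819.6 and 955 TPM, 43.5% of mock (-1.20 ± 0.56, adjusted p = 0.0861). CA2 was at 628, 739 and 737 TPM, 53.9% of mock (-0.90 ± 0.50, adjusted p = 0.1546). The fit shares 1 spread per gene over all groups, and these genes are near 0 TPM in bon123, where 1 library, mock replicate 1, stood apart from the rest. Without that library the fold changes were the same and RBCS2B (± 0.20, adjusted p = 9.25e-05), RBCS3B (± 0.26, adjusted p = 0.0095), CA1 (± 0.19, adjusted p = 1.15e-04) and CA2 (± 0.16, adjusted p = 3.33e-04) also fell. The count of members lower after ABA was therefore 3 of 8 with all libraries and 7 of 8 without that one, or with only the compared groups in the fit, and 1 of 8 (FBA2) under median-of-ratios scaling, with no member higher under any of these. Over all 21727 genes tested, 30.6% were lower and 18.9% higher with all libraries, and 29.9% and 18.5% without bon123 mock replicate 1. The shares are not given for the other settings.

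Mannitol left less of every member in WT than ABA did. The RBCS sum fell to 10560.3, 8894 and 13475 TPM, 32.9% of mock (-1.63 ± 0.21, adjusted p = 9.72e-06). RBCS1A fell to 5359, 4462 and 6428 TPM (-1.36 ± 0.16, adjusted p = 4.59e-06). RBCS1B again had the lowest percentage, 16.3% of mock, at 702, 679.6 and 1029 TPM (-2.64 ± 0.74, adjusted p = 0.0075). RBCS2B fell to 925, 795 and 1381 TPM, 20.6% of mock (-2.32 ± 0.75, adjusted p = 0.0177). RBCS3B was at 3575, 2957 and 4637 TPM, 38.4% of mock, and did not pass with all libraries (-1.41 ± 0.59, adjusted p = 0.0583) but fell without bon123 mock replicate 1 (adjusted p = 3.77e-04). In each copy the mannitol libraries lay below the ABA libraries.

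The other members followed the same order. CA1 fell to 455, 426 and 693 TPM (-1.95 ± 0.56, adjusted p = 0.008), and CA2 to 265, 305 and 406 TPM (-2.02 ± 0.50, adjusted p = 0.0032). FBA2 fell to 1282, 1131 and 1499 TPM (-1.23 ± 0.13, adjusted p = 1.24e-06). RCA had the smallest fall, to 4160.15, 4541 and 5363 TPM, 72.5% of mock (-0.47 ± 0.13, adjusted p = 0.0069); it did not pass with only the 2 compared groups in the fit (adjusted p = 0.1248). In all, 7 of 8 members were lower and none higher, where 25.0% of all genes were lower and 25.5% higher. The summed shoot marker level, 135 to 145 TPM in WT mock, was 99.5 to 111 TPM after ABA and 72.3 to 86.4 TPM after mannitol, and its part in these falls was not tested.

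**Figure D2:**
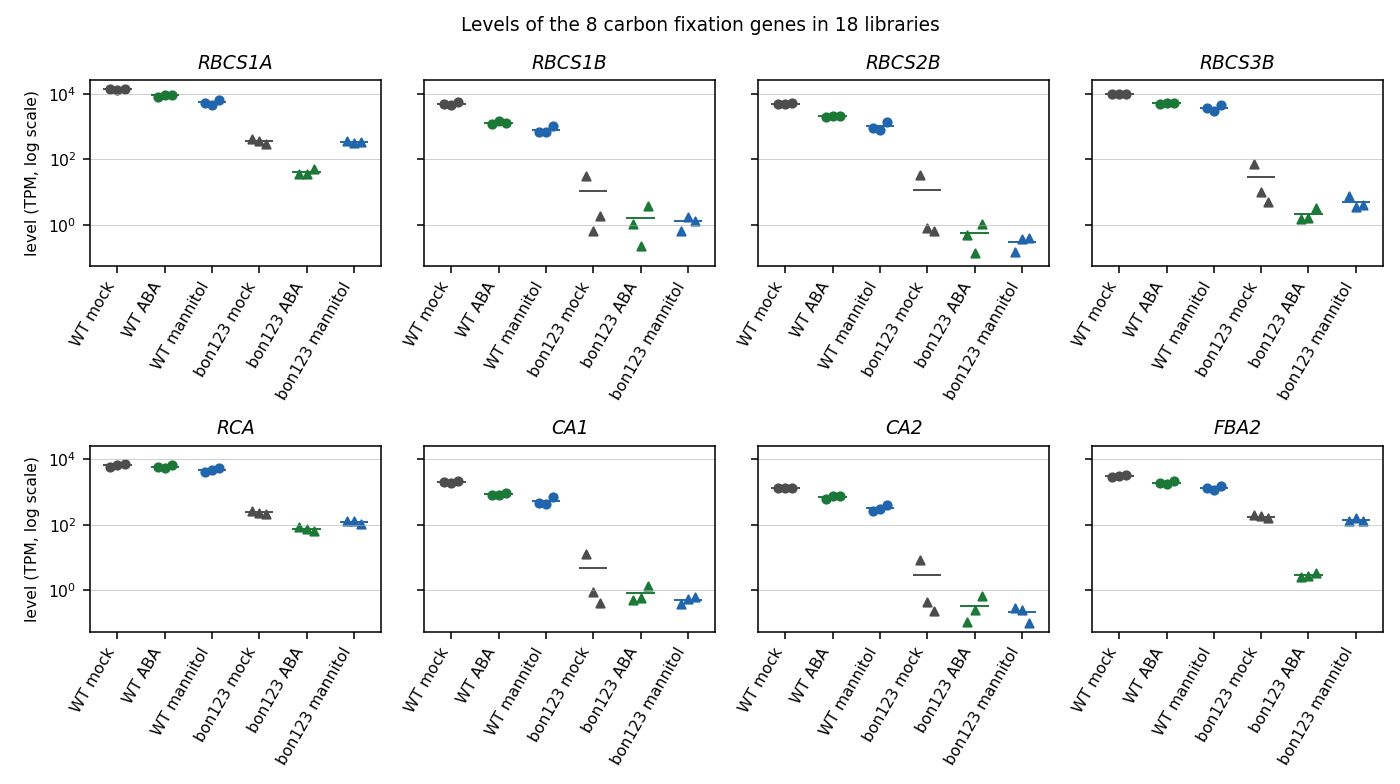
Level (TPM, log axis) of each of the 8 genes in every library, 3 points a group (circles WT, triangles bon123), with the group mean as a bar. In WT the group means of every gene run down from mock to ABA to mannitol, with the ABA and mock libraries of RCA overlapping; in bon123, RBCS1A, RCA and FBA2 stay above 100 TPM in mock while the other 5 are at 70 TPM or less.

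The make-up of the small subunit pool also differed between the WT groups. RBCS1A supplied 41.1% ± 0.77 of the RBCS sum in mock (SD, n = 3), 50.9% ± 0.95 after ABA and 49.5% ± 1.62 after mannitol. RBCS1B supplied 14.8% ± 0.73 in mock, 7.5% ± 0.39 after ABA and 7.31% ± 0.57 after mannitol. RBCS2B supplied 15.03% ± 0.19, 11.8% ± 0.37 and 9.31% ± 0.81 in the same order. RBCS3B supplied 29.1% ± 0.88 in mock, 29.8% ± 0.51 after ABA, where the libraries overlapped those of mock, and 33.8% ± 0.58 after mannitol. For the other 3 copies and both treatments, and for RBCS3B after mannitol, the 3 treated libraries did not overlap the 3 mock libraries; an exact two-sided permutation test of 3 against 3 libraries cannot go below p = 0.10, the value each of these gave. With both genotypes as strata, the RBCS1A share differed by 8.13 points after mannitol (exact permutation test, p = 0.005, the smallest 400 assignments allow; adjusted over 12 tests, p = 0.01). The same test for ABA gave 5.27 points (exact p = 0.22, adjusted p = 0.264). Both values rest in part on bon123 mock replicate 1, whose RBCS1A share was 76.4% against 96.9% and 97.4% in the other 2: without it they were 4.66 points for mannitol (exact p = 0.01) and 1.81 points for ABA (exact p = 0.575). Ratios between copies do not depend on the scaling of a library, but the 3 chromosome 5 copies share sequence as given above.

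**Figure D3:**
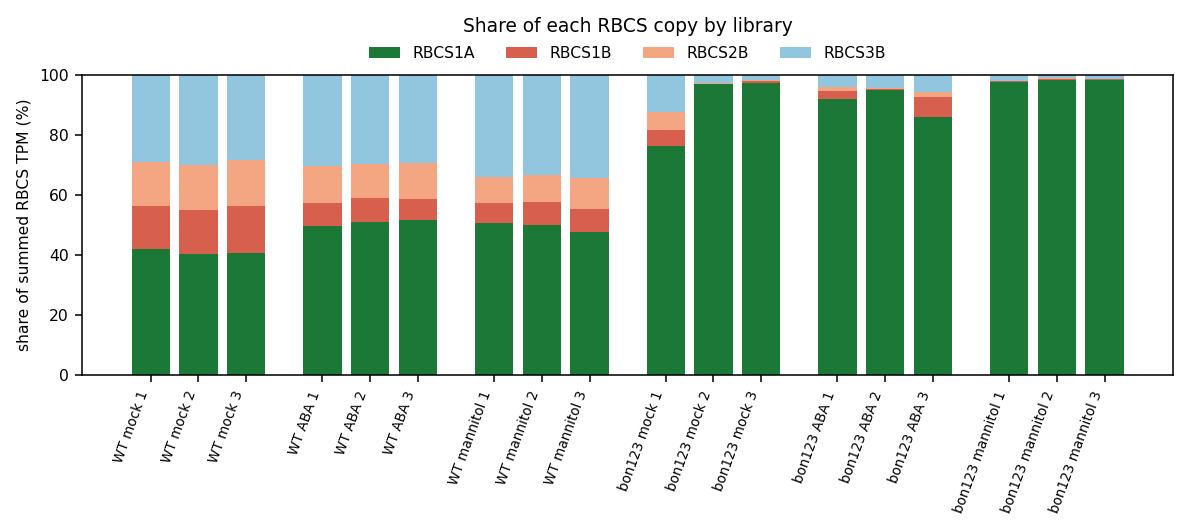
Share of the summed RBCS level (percent of TPM) from each copy in every library, stacked to 100. RBCS1A makes up 40.6% to 51.7% in the 9 WT libraries and 76.4% to 98.3% in the 9 bon123 libraries.

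The ratio of activase to small subunit, also free of library scaling, was higher in both treated WT groups than in mock. The log2 ratio of RCA to the RBCS sum was -2.37 ± 0.11 in mock (SD, n = 3), -1.56 ± 0.15 after ABA and -1.21 ± 0.21 after mannitol. Neither treated group overlapped mock (exact permutation test, two-sided p = 0.1 for each, the smallest possible). The ratio of CA1 to the RBCS sum differed less, from -4.07 ± 0.04 to -4.33 ± 0.12 and -4.40 ± 0.13. FBA2 was compared with its plastid relative FBA1: the log2 ratio was 0.92 ± 0.01 in mock, 0.77 ± 0.07 after ABA and 1.27 ± 0.06 after mannitol. FBA1 itself fell after mannitol (-1.58). After ABA it was at 1077, 1048 and 1202 TPM against 1534, 1558 and 1729 TPM in mock, 69.0% of mock. It did not pass there in the fit over all 18 libraries (-0.54). The spread used in that fit includes bon123 mock replicate 1, where FBA1 was at 13.3 TPM against 4.14 and 3.59 TPM in the other bon123 mock libraries.

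In bon123 all 8 genes were far lower than in WT under each treatment, in libraries that also lacked shoot markers. In mock the RBCS sum was 561, 361 and 293 TPM, and the WT mean was 82.5 times the bon123 mean (-6.42 ± 0.21, adjusted p = 2.39e-13). After ABA it was 38.4, 37.5 and 57.9 TPM, with a WT mean 390 times as high (-8.60 ± 0.21, adjusted p = 4.92e-15). After mannitol it was 359, 317 and 339 TPM, with a WT mean 32.4 times as high (-5.00 ± 0.21, adjusted p = 4.82e-12). No bon123 library of any member reached the lowest WT library. All 8 members were lower and none higher in mock, where 33.7% of all genes were lower and 40.1% higher; in ABA, where 47.5% were lower and 28.9% higher; and in mannitol, where 49.3% were lower and 25.4% higher.

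The members split in bon123 into genes that kept a few percent of the WT level and genes near 0. In mock, RBCS1A was at 428, 349.7 and 285 TPM, 2.08% to 3.12% of the WT mock mean. RCA was at 264, 225 and 219 TPM, 3.39% to 4.08% of it. FBA2 was at 193, 181 and 158 TPM, 5.18% to 6.33% of it. The other 5 were close to 0 in replicates 2 and 3: RBCS1B was at 0.66 and 1.93 TPM, RBCS2B at 0.81 and 0.65, RBCS3B at 9.82 and 5.10, CA1 at 0.92 and 0.42, and CA2 at 0.45 and 0.23 TPM, all at 0.101% of the WT mock mean or less.

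In bon123 mock replicate 1 those 5 genes were many times higher than in the other 2 mock libraries. RBCS1B was at 30.04 TPM, RBCS2B at 32.6, RBCS3B at 70, CA1 at 12.9 and CA2 at 8.24 TPM. As a share of the WT mock mean the 5 genes lay between 0.609% and 0.721%, a narrow band over WT levels of 1302 to 9708 TPM. The excess was not confined to these 5 genes. In replicate 1 FBA1 was at 13.3 TPM against 4.14 and 3.59 in the others, and LHCB2.2 at 47.1 against 23.3 and 19.2. RPI3, at 55.6 TPM against 56.3 and 60.3, cannot show whether it shared the excess. Its WT mock mean was 297 TPM, and 0.721% of that is smaller than the gap between its other 2 libraries. Whether genes outside the 5 had an excess in proportion to their WT level was not tested. The shoot marker sum was 3.79 TPM in replicate 1 and 2.44 and 3 TPM in the other 2, and the part of shoot content in these values was not tested.

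RBCS1A therefore made up nearly all of the small subunit pool in bon123. Its share was 76.4%, 96.9% and 97.4% in mock, 91.9%, 94.8% and 86.2% after ABA, and 97.7% to 98.3% after mannitol, above every WT library. The difference from WT was 45.9 points (exact permutation test within the 3 treatments, p = 0.00025, the smallest 8000 assignments allow; adjusted p = 0.00075). RBCS3B was 27.0 points lower, RBCS2B 10.9 and RBCS1B 7.94 points lower, each with the same p values. After ABA the pool itself was only 37.5 to 57.9 TPM, so the shares there rest on low levels.

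ABA lowered further the 3 genes that had kept over 100 TPM in bon123. FBA2 had the largest fall of the 8, from 158 to 193 TPM in mock to 2.49, 2.81 and 3.49 TPM (-5.51 ± 0.13, adjusted p = 3.50e-14). RBCS1A fell to 35.3, 35.5 and 49.9 TPM, 11.4% of mock (-3.11 ± 0.16, adjusted p = 1.23e-10). RCA fell to 82.6, 72.3 and 62.4 TPM, 30.7% of mock (-1.70 ± 0.13, adjusted p = 8.77e-09; -1.01 under median-of-ratios scaling, adjusted p = 7.64e-06), and in all 3 ABA libraries was above the whole RBCS sum. None of the 3 genes' ABA libraries overlapped mock. The log2 ratio of RCA to the RBCS sum was -0.73 ± 0.34 in mock and 0.72 ± 0.54 after ABA (SD, n = 3; exact permutation test, two-sided p = 0.1, the smallest possible).

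RBCS3B also fell, to 1.56, 1.57 and 3.19 TPM (-2.47 ± 0.59, adjusted p = 0.0014; -1.43 without bon123 mock replicate 1, adjusted p = 5.09e-04). It did not pass with only the 2 compared groups in the fit (adjusted p = 0.0527). RBCS1B, RBCS2B, CA1 and CA2 were at 3.76 TPM or less in every ABA library and did not pass. The RBCS sum fell by 3.13 on the log2 scale (± 0.21, adjusted p = 1.94e-09). In all, 4 of 8 members were lower and none higher, where 55.5% of all genes were lower and 15.1% higher: the share of members called was no greater than that of all genes. The count was 7 without bon123 mock replicate 2 or without replicate 3, and 8 with array weights. Leaving out replicate 2 or 3 gives the outlying mock replicate 1 more weight in the mock mean. The shares of all genes called are not given for these settings, so these counts cannot be set against them. The 4 LHCB genes, with a sum of 860.3 to 1167 TPM in mock and 186 to 284 TPM after ABA, moved with them. The median gene itself fell by 0.51 on the log2 scale in this comparison and by 0.03 under median-of-ratios scaling.

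After mannitol RBCS1A in bon123 was at 351, 311 and 334 TPM and overlapped mock (-0.08 ± 0.16, adjusted p = 0.7074). The RBCS sum gave -0.21 ± 0.21 (adjusted p = 0.4148), an estimate that turned to 0.31 under median-of-ratios scaling and to 0.06 without bon123 mock replicate 1. RCA fell to 126, 134 and 107 TPM, 51.8% of mock (-0.94 ± 0.13, adjusted p = 1.47e-05; -0.43 under median-of-ratios scaling, adjusted p = 0.0133). FBA2, at 132, 162 and 132 TPM against 158 to 193 in mock, passed narrowly (-0.32 ± 0.13, adjusted p = 0.043) and turned to 0.19 under median-of-ratios scaling. RBCS2B (-1.83, adjusted p = 0.0459) and RBCS3B (-1.52, adjusted p = 0.0351) passed with all libraries, and without bon123 mock replicate 1 gave -0.41 (adjusted p = 0.1368) and -0.48 (adjusted p = 0.1761). Over all genes, 48.8% were lower and 12.6% higher with all libraries, and 45.7% and 11.2% without bon123 mock replicate 1. Of the 8 members 4 were lower and none higher with all libraries, and 1 (RCA) without that replicate. The count was 6 without mock replicate 2 or 3 of bon123, 1 without its mannitol replicate 3, and 2 without its mannitol replicate 1 or 2 or its ABA replicate 2. Leaving out mock replicate 2 of WT, its ABA replicate 1 or its mannitol replicate 1 also gave 2. Except without bon123 mock replicate 1, the shares of all genes are not given for fits with a library left out. Without mock replicate 2 or 3 of bon123, its outlying replicate 1 weighs more in the mock mean.

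**Figure D4:**
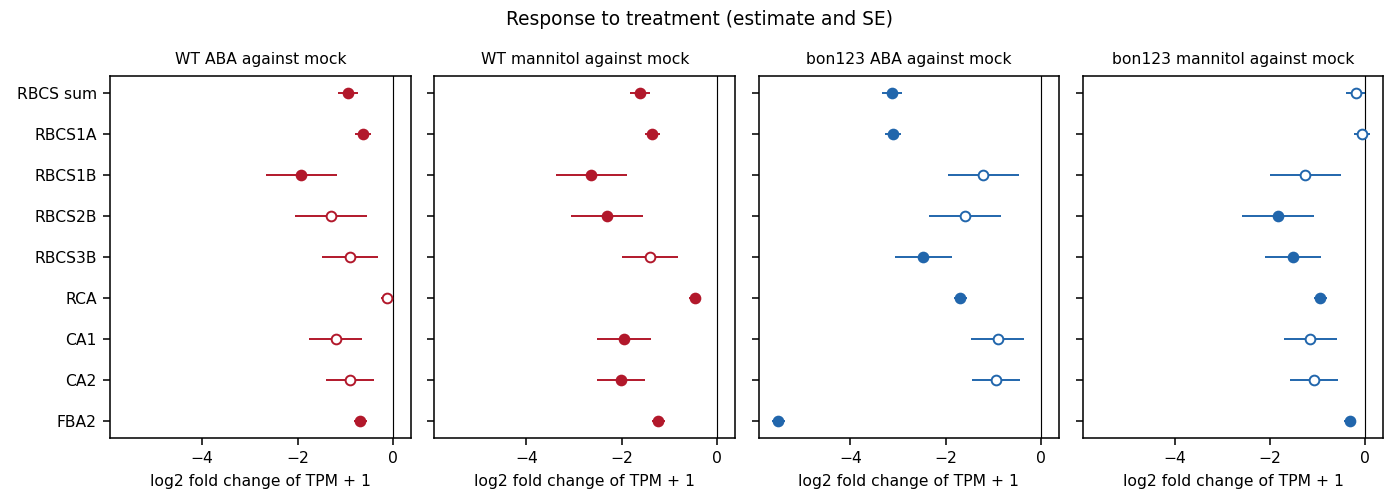
Log2 fold change of TPM + 1 after each treatment, with its SE, for the RBCS sum and the 8 genes; filled points passed the threshold (adjusted p under 0.05) and open points did not. RBCS1A falls more after mannitol in WT (-1.36) and more after ABA in bon123 (-3.11), and the wide SEs of RBCS1B, RBCS2B, RBCS3B, CA1 and CA2 include bon123 mock replicate 1.

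The difference between genotypes in the response was itself tested. The ABA response of RBCS1A was further down in bon123 than in WT (difference in log2 fold change -2.47 ± 0.23, adjusted p = 4.40e-07), and so were those of RCA (-1.57 ± 0.18, adjusted p = 4.25e-06) and FBA2 (-4.82 ± 0.185, adjusted p = 6.06e-11). The RBCS sum gave -2.19 ± 0.30 (adjusted p = 1.88e-05). Of the 8 members 3 were lower and none higher, where 43.0% of all genes were lower and 9.51% higher, with a median of -0.44. Without bon123 mock replicate 1 these 3 stayed lower, and RBCS1B (1.97), RBCS2B (1.11), CA1 (1.31) and CA2 (0.88) passed as higher, which makes 7 called. These 4 were at 3.76 TPM or less in bon123 in the libraries left, where the log2(TPM + 1) scale leaves little room for a fall. Over all genes, 40.5% were lower and 8.52% higher without that replicate.

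For mannitol the order was the other way for RBCS1A (1.28 ± 0.23, adjusted p = 1.93e-04), FBA2 (0.91 ± 0.185, adjusted p = 5.35e-04) and the RBCS sum (1.42 ± 0.30, adjusted p = 6.79e-04), whose falls were smaller in bon123 than in WT. RCA was lower (-0.48 ± 0.18, adjusted p = 0.0332), but the median of all genes was -0.42, and RCA's estimate turned to 0.12 under median-of-ratios scaling. In all 1 member was lower and 2 were higher, where 45.3% of all genes were lower and 17.0% higher. Without bon123 mock replicate 1 the count was 6, all higher, where 43.7% of all genes were lower and 16.1% higher. Besides RBCS1A and FBA2 these were RBCS1B, RBCS2B, CA1 and CA2, at 1.93 TPM or less in the bon123 mock libraries left. From there the log2(TPM + 1) scale leaves little room for a fall like that in WT, so their calls do not show a smaller response. Thus the RBCS1A level fell more after mannitol than after ABA in WT, and more after ABA than after mannitol in bon123. The comparisons of ABA and of mannitol share their mock libraries.

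The rest of carbon fixation was followed in lists of genes outside the 8. Of 20 Calvin-Benson cycle genes, 14 were lower and 1 higher after ABA in WT, with a median of -0.52 against -0.11 over all genes tested. The lowest was RBCL, the chloroplast gene for the Rubisco large subunit (-1.25), at 119.9, 54.1 and 56.8 TPM in mock and 23.6 to 40.0 TPM after ABA. Its place as lowest rests in part on WT mock replicate 1, which holds the 119.9 TPM. In that library ribosomal RNA took 7.02% and chloroplast genes 1.04% of the total, against 0.458% and 0.381% for chloroplast genes in the other mock libraries. The 1 higher gene was CP12-3 (0.79), of a family of small proteins that bind 2 enzymes of the cycle in the dark. With only the 2 compared groups in the fit, 17 were lower and 0 higher. After mannitol 13 of 20 were lower and 1 higher (median -0.45 against 0.02), from FBA1 (-1.58) to FBA3 (0.30), a further plastid aldolase. Under median-of-ratios scaling 14 were lower and 0 higher. After ABA in bon123, 15 of 20 were lower and none higher (median -2.22 against -0.51), or 14 lower and 4 higher under median-of-ratios scaling, with GAPB, a subunit of the plastid glyceraldehyde-3-phosphate dehydrogenase, lowest (-3.56); RBCL was not among them (0.31). After mannitol in bon123, 8 of 20 were lower and 3 higher (median -0.26 against -0.36), from PRK, phosphoribulokinase (-1.46), to RBCL (1.25); under median-of-ratios scaling 4 were lower and 10 higher. These counts, and those of the 3 lists that follow, stand beside shares of all genes of 30.6% lower and 18.9% higher after ABA and 25.0% and 25.5% after mannitol in WT, and 55.5% and 15.1% after ABA and 48.8% and 12.6% after mannitol in bon123. The share of the cycle genes that was lower after mannitol in bon123 was thus below that of all genes. These shares belong to the fit over all 18 libraries without rescaling. They are not given for median-of-ratios scaling or for only the compared groups, so the counts under those settings have none beside them. Under median-of-ratios scaling the median of all genes after mannitol in bon123 was 0.01 instead of -0.36.

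Of 12 genes for Rubisco assembly and its upkeep, 11 were lower after ABA in WT and 1 higher (median -0.95). The lowest was CPN60B1, a subunit of the chloroplast chaperonin that folds the large subunit (-1.36), and the 1 higher was RBCX2, an assembly chaperone (0.59). After mannitol 9 were lower and 2 higher (median -0.94), from CPN60B2 (-1.90) to RBCX1 (1.04). In bon123, 11 were lower and 1 higher after ABA (median -2.61), the higher one again RBCX2 (1.03), and 9 lower and 1 higher after mannitol (median -0.51; 5 and 1 under median-of-ratios scaling). So RBCX2 was higher after ABA in both genotypes, while the chaperonin subunit genes in the list were lower.

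Of 5 further carbonic anhydrase genes, 3 were lower and 1 higher after either treatment in WT. The higher one was BCA6, a mitochondrial isoform (1.76 after ABA and 1.67 after mannitol), and the lowest was ACA1 (-1.58 and -1.12). In bon123, 2 were higher and 2 lower after ABA, from ACA1 (-0.64) to BCA5 (0.61), with 0 lower both without bon123 mock replicate 1 and under median-of-ratios scaling; after mannitol 1 was higher, BCA4 (0.76), and 2 lower, with BCA6 lowest (-2.41). Of 17 photorespiration genes, which recycle the product of Rubisco's reaction with oxygen, 8 were lower and none higher after ABA in WT (median -0.38), and 8 lower and 1 higher after mannitol (median -0.31). After ABA in bon123, 16 of the 17 were lower (median -1.76), with the glycolate oxidase gene GOX2 lowest (-4.54). After mannitol in bon123, 10 were lower and 1 higher (median -0.69; 6 and 2 under median-of-ratios scaling).

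Against WT in mock, bon123 was lower for 17 of the 20 Calvin-Benson genes, 12 of 12 assembly genes, 4 of 5 anhydrases and 14 of 17 photorespiration genes, with medians of -2.75, -2.41, -1.42 and -2.73, while the median of the 8 members was -9.09 and that of all genes 0.13, with 33.7% of all genes lower and 40.1% higher. Higher in bon123 were CP12-3 (2.48) and FBA3 (0.56) of the cycle, BCA6 (2.17), and GLYK, glycerate kinase (1.25), with BASS6 (0.54), a glycolate transporter. FBA2 and FBA3 thus stood on opposite sides, at -4.10 and 0.56. FBA1 was the lowest of the cycle list (-7.85), GOX1 of the photorespiration list (-6.89) and ACA1 of the anhydrases (-5.98). Under median-of-ratios scaling 17, 12, 4 and 14 genes of the 4 lists were lower, in the same order. On the log2(TPM + 1) scale a fall is bounded by the WT level. The medians of members and lists are thus not on an equal footing. In WT mock the members had means of 1302 to 13738 TPM, and the 5 anhydrases of the list 5.94 to 222 TPM.

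**Figure D5:**
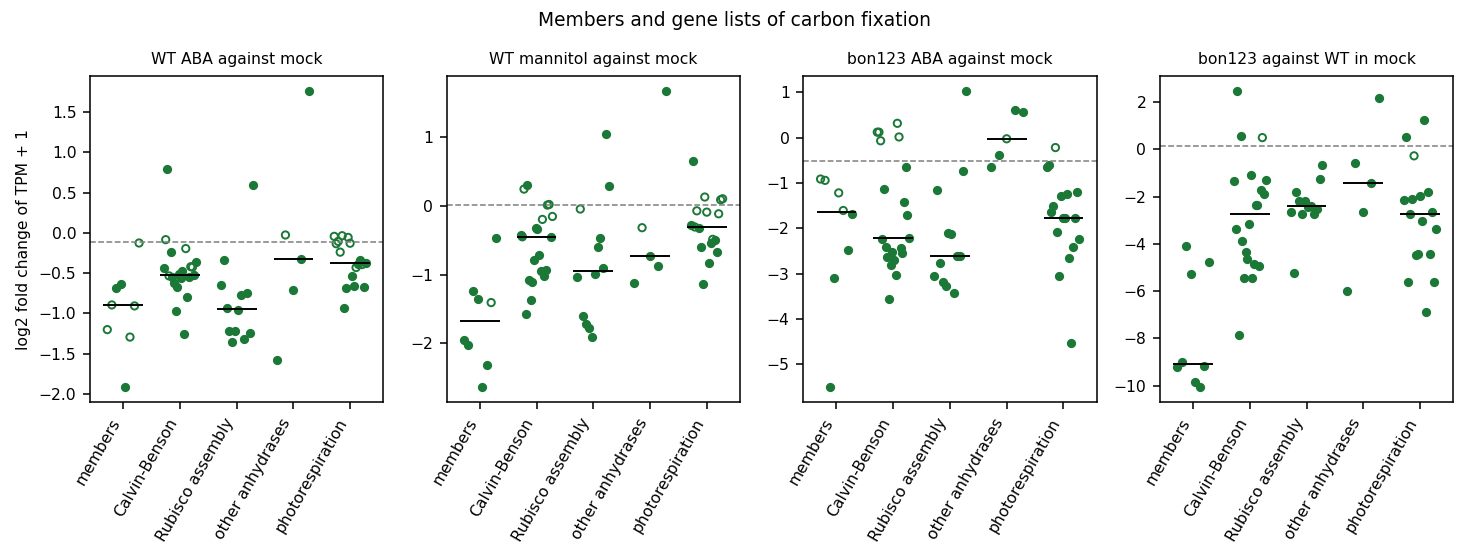
Log2 fold change of TPM + 1 of the 8 members and of 4 lists of carbon fixation genes in 4 comparisons; filled points passed the threshold, open points did not, bars are list medians and the dashed line is the median of all genes tested. The members have a median of -9.09 in bon123 against WT, below the 4 lists, whose medians run from -2.75 to -1.42. A fall on this scale is bounded by the WT level, which was higher in the members than in most list genes.

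The genes whose levels over the 18 libraries were most like the RBCS sum, out of 7355 candidates with a RefSeq symbol, were LHCB6, PCB2, GAPA, PSI-P, GAPA-2 and LHCB4.1. As the 2 genotypes form separate clusters, likeness is given within each, over 9 libraries that fall into 3 groups. Pearson's r was between 0.961 (LHCB4.1) and 0.994 (GAPA) in WT and between 0.968 (GAPA-2) and 0.993 (LHCB6) in bon123. LHCB6 and LHCB4.1 are minor light-harvesting proteins, PCB2 acts in chlorophyll synthesis, and GAPA and GAPA-2 are subunits of the same dehydrogenase as GAPB. For RCA the 6 were PGR5-LIKE A, LHCB2.2, PTAC16, TAPX, PIL6 and POR C, with r between 0.722 (PIL6) and 0.961 (LHCB2.2) in WT and between 0.939 (PIL6) and 0.991 (PGR5-LIKE A) in bon123. No gene stood in both lists. Both were ranked over all 18 libraries and so on the gap between genotypes; ranked within WT alone the gene closest to the RBCS sum was RPL4 (r = 0.998), and within bon123 alone ZIP4 (r = 0.996), with PSBO2 (0.984) and HCF101 (0.995) closest to RCA.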

How the data were processed

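The deposited table gives TPM for 33082 genes in 18 libraries; per the submitters' processing notes the tools were HISAT2 2.1.0, RSEM 1.3.1 and DESeq2 1.24.0 with TAIR10, whose roles are not stated there. How RNA was selected and the read depth are not given in the sources used here, so no counting interval is given. The table also holds a length per gene from the authors, which was used for 1 alternative. Genes at 1 TPM or more in at least 3 libraries (21727, all 8 members among them) were fitted as log2(TPM + 1) with limma 3.58.1 (R 4.3.3, trend, 6 group means, all libraries), and p-values were Benjamini-Hochberg adjusted over all genes in each of 9 comparisons; a gene was called at an adjusted p under 0.05. The RBCS sum came from a second fit with the 4 rows replaced by their sum. Shares and ratios were tested by exact permutation. Both tests were tested on simulated data. The simulation for limma gave all groups the same spread per gene. It therefore does not bear on genes whose spread differed between groups, such as those near 0 TPM in bon123. Sequences are from RefSeq's TAIR10.1. The members, lists and markers were chosen with earlier results of these data known; from each list the called genes with the largest and smallest fold change may be named, and RBCL, FBA1, FBA3 and BASS6 were also named after their values were seen. No 2 libraries held identical values.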

Additional observations from a re-analysis of the deposited data

Results flagged for a closer look

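The results below are differences between genotypes in the response to a treatment, each past the threshold in limma's test of the difference itself. After ABA the log2 change was lower in bon123 than in WT by -2.47 for RBCS1A, -1.57 for RCA, -4.82 for FBA2 and -2.19 for the RBCS sum. In all 3 genes the 3 bon123 ABA libraries lay below the 3 bon123 mock libraries, and in WT RCA's libraries overlapped. After mannitol the difference was 1.28 for RBCS1A, 0.91 for FBA2 and 1.42 for the RBCS sum, all smaller falls in bon123, and -0.48 for RCA. The median of all genes was -0.44 in the ABA comparison and -0.42 in that of mannitol, close to the RCA value for mannitol. That RCA value passed in 9 of 13 other settings and reached 0.12 among them. The bon123 libraries had a shoot marker sum of 1.31 to 3.79 TPM against 72.3 to 145 TPM in WT, so genotype and organ content cannot be told apart.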

How the results depend on the processing

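All 8 members were lower in bon123 than in WT, and the RBCS sum was lower in WT after both treatments and in bon123 after ABA, under every alternative tried. Counts of members called moved more, and they are given here without the share of all genes called under each setting. After ABA in WT, 3 members were called with all libraries, 6 with a pseudocount of 10, 7 with only the groups compared, 1 under median-of-ratios scaling, and 2 to 7 when each library was left out in turn. After ABA in bon123 the count was 4, against 8 with array weights and 4 to 7 with a library left out. After mannitol in bon123 it was 4, against 2 with the length trend removed, a pseudocount of 10 or only the groups compared, 1 with no filter or under either scaling (median-of-ratios, upper-quartile), and 1 to 6 with a library left out. The count for genotype by ABA was 3, against 5 with a pseudocount of 10 and 3 to 7 with a library left out, and that for genotype by mannitol 3, against 7 and 2 to 6. The RBCS sum after mannitol in bon123 turned from -0.21 to 0.31 (median-of-ratios) and 0.32 (upper-quartile), with -0.41 to 0.055 as the range with a library left out.

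Single genes turned as follows. For mannitol in bon123, RBCS1A gave 0.11 with the length trend removed, 0.44 and 0.45 under the 2 scalings and 0.021 with rRNA left out, and FBA2 gave 0.053, 0.19 and 0.20 under the first 3 of these. For genotype by ABA, CA2 gave 0.45 with the length trend removed, 0.61 with a pseudocount of 10, and 0.14 and 0.13 under the scalings, and RBCS2B gave 0.13 with the length trend removed and 0.61 with a pseudocount of 10. For genotype by mannitol, RBCS3B gave 0.073, 0.46, 0.42 and 0.42 under those 4 settings, RCA gave 0.041 with the length trend removed and 0.12 and 0.12 under the scalings, and RBCS2B gave -0.53 with a pseudocount of 0.1. With a library left out, ranges crossing 0 were, after ABA in bon123, -2.06 to 0.053 for RBCS1B and -1.54 to 0.11 for CA1; after mannitol in bon123, -0.22 to 0.069 for RBCS1A and -2.10 to 0.012 for RBCS1B; for genotype by ABA, -0.14 to 1.97 for RBCS1B, -1.06 to 1.11 for RBCS2B, -0.33 to 1.31 for CA1 and -0.57 to 0.88 for CA2; for genotype by mannitol, -0.26 to 1.91 for RBCS2B and -0.84 to 0.93 for RBCS3B; and for the RBCS3B share, -1.14 to 1.54 points after ABA and -0.68 to 2.00 points after mannitol. The cause of these turns was not tested.

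Libraries with the same replicate number had correlations of -0.244 to 0.263 between their deviations, over 0.1 in 7 of 45 cases. Libraries with unlike numbers were not compared, so whether the numbers pair the libraries cannot be settled. A replicate block left the RBCS sum after ABA in WT at -0.94 and changed no count of members called. Values under 1 TPM, as for RBCS2B, CA1 and CA2 in bon123, are shrunk by the pseudocount, and the depth behind them is unknown.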

Other observations

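Levels in bon123, as a share of the WT mock mean, set FBA2 apart by treatment. FBA2 stood at 5.18% to 6.33% in mock, 4.31% to 5.31% after mannitol and 0.0817% to 0.115% after ABA. RCA stood at 3.39% to 4.08%, 1.65% to 2.08% and 0.965% to 1.28% in the same order, and RBCS1A at 2.08% to 3.12%, 2.26% to 2.55% and 0.257% to 0.363%. FBA2 thus went from the highest of the 3 in mock to the lowest after ABA, in every library.

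RBCL and the RBCS sum were both lower after both treatments in WT and both lower in bon123 than in WT, but within bon123 they were lowest in different groups. RBCL there was at 1.40 to 1.61 TPM in mock, 1.56 to 2.85 TPM after ABA and 3.28 to 7.24 TPM after mannitol, where the RBCS sum was lowest after ABA. All chloroplast genes together took 0.0222% to 0.0231% of the total in bon123 mock, 0.018% to 0.0554% after ABA and 0.062% to 0.111% after mannitol. The labels do not say how RNA was selected before sequencing, on which the level of a chloroplast transcript depends.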
